A study of Homo sapiens with 12 samples.

Results

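The extracellular signal-regulated kinase (ERK) branch of the mitogen-activated protein (MAP) kinase cascade and its negative feedback genes were examined in HEK293T cells, a human embryonic kidney line, that overexpressed 1 of the transcription factors NRF1, NRF2 or NRF3. The set holds 10 genes, taken by symbol from the 38019 genes of the deposited RNA-seq table: DUSP1, DUSP4, DUSP5, DUSP6, SPRY1, SPRY2, SPRY4, SPRED1, SPRED2 and MAP2K1. The set was chosen on measured values, because DUSP1 was lower with NRF1 and MAP2K1 was higher with NRF1 and NRF2. The values of all 10 genes in NRF1 and NRF2 cells against empty vector cells are therefore given as a description: where the number of genes past the threshold is stated, it stands beside its share over all genes and supports nothing. Tests are given for NRF3 cells against empty vector cells, and for the direct comparisons between transgenes in genes other than DUSP1 and MAP2K1.

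Cells were harvested 24 h after transient FuGENE transfection, with 3 libraries per condition from 3 independent experiments according to the labels. In such bulk RNA the share of transfected cells and the change per cell cannot be told apart. NRF1 cells received FLAG-tagged NRF1 and NRF3 cells received FLAG-tagged NRF3, both from codon-optimized sequences and both truncated to lack the N-terminal part that targets the protein to the endoplasmic reticulum. NRF2 cells received FLAG-tagged NRF2 with the T80D substitution, which weakens binding to its inhibitor KEAP1. Empty vector cells received the plasmid backbone alone, so every condition shared the cell line, the vector and the transfection. All 3 factors were delivered by plasmid to one cell line, and no condition measured cells that were not transfected.

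ERK signaling starts at receptor tyrosine kinases, passes through RAS and RAF to the kinases MEK1 and MEK2, and ends with phosphorylated ERK, which drives transcription of immediate-early genes. Several of the induced genes then dampen the cascade. The dual-specificity phosphatases (DUSPs) remove phosphate from MAP kinases, whereas the Sprouty (SPRY) and SPRED proteins act further upstream and limit the activation of RAS and RAF. MAP2K1 encodes MEK1, the kinase that phosphorylates ERK, and is itself a substrate of ERK feedback.

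The promoters of the 2 genes on which the set was chosen are shown because DUSP1 is a well-known immediate-early gene with cyclic AMP response elements, and NRF factors bind antioxidant response elements (AREs). RefSeq windows of 300 bases, with 250 bases before and 50 after the start site, were matched by symbol for 8 of the 10 genes (13 windows, build GRCh38.p14). DUSP4 and DUSP5 are named only. The DUSP1 window is chr5:172771146-172771445 on the minus strand and the first of 2 MAP2K1 windows is chr15:66386662-66386961 on the plus strand. Capitals mark matches on either strand to the full cyclic AMP response element (TGACGTCA), its shorter core TGACG, which lies inside the full element, and the ARE core TGACNNNGC, which begins with the same 4 letters as TGACG.
DUSP1: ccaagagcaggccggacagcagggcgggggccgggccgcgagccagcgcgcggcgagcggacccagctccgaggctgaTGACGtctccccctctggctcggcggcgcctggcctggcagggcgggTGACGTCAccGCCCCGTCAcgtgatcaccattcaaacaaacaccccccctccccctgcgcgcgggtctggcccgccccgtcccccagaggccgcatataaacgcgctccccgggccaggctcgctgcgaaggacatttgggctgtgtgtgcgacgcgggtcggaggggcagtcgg
MAP2K1: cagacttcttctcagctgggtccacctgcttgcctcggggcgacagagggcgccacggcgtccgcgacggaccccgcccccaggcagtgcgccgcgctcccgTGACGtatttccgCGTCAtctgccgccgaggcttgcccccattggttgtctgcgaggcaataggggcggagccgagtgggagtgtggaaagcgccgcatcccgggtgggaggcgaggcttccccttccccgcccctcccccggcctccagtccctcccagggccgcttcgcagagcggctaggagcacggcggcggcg

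The DUSP1 window held 1 full cyclic AMP response element, which starts at position -125 from the start site, and 4 matches to TGACG, of which 2 lie in that element. It also held 1 ARE core on the opposite strand, at position -115, which overlaps a TGACG match at position -111. The MAP2K1 window held 2 matches to TGACG, at positions -148 and -135, and neither the full element nor an ARE core. Of all 35116 RefSeq windows, 1.85% held the full element, 24.6% held TGACG and 13.3% held the ARE core. Among the other matched members only SPRY4 had an ARE core, at position -228 on the opposite strand. The AP-1 element TGACTCA, found in 4.95% of all windows, occurred in 1 of the 2 SPRED2 windows, and the ETS core CCGGAAG, found in 10.3%, in 1 of the 2 SPRY1 windows. These matches are a description of the letters and carry no measurement of binding.

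Estimated counts were used, and the 12 libraries held 13452524 to 14014316 counts each. A total of 15135 genes passed the filter on low counts, and 8 of the 10 members were among them, each with at least 19 counts in every library. DUSP6 and SPRY4 had too few counts to be tested. HMOX1, an antioxidant gene induced by NRF factors, rose with every transgene (log2 fold change 3.17 with NRF1, 4.49 with NRF2 and 2.47 with NRF3), and NQO1 rose with NRF2 (2.71). NFE2L2, which encodes NRF2, was 6.82 higher on the log2 scale in NRF2 cells, whereas NFE2L1 stood at 0.12 with NRF1 and NFE2L3 at 0.15 with NRF3, neither past the test, and those transgenes were codon-optimized. All 7 HEK293T markers were present, and the 11 markers of other cell types summed to 1.24 to 3.31 CPM (counts scaled for library depth) in each library, with CDH5 and INS at 0 in all libraries. NRF3 libraries spread most: the median standard deviation (SD) of log2 CPM over all tested genes was 0.187 in NRF3 cells, 0.105 in NRF1 cells, 0.122 in NRF2 cells and 0.0884 in empty vector cells. A gene was called at a Benjamini-Hochberg adjusted p under 0.05 in edgeR's quasi-likelihood test over all tested genes.

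DUSP1, a nuclear phosphatase that acts on p38, JNK and ERK, was lowest in NRF1 cells. The counts were 416, 459 and 466 in NRF1 cells, 516, 515 and 548 in NRF2 cells, 563, 584 and 526 in NRF3 cells and 560, 617 and 566 in empty vector cells. Every NRF1 library lay below every other library. The level was 32.5 ± 2.01 CPM in NRF1 cells, 37.6 ± 1.80 in NRF2 cells, 41.6 ± 1.59 in NRF3 cells and 42.7 ± 2.19 in empty vector cells (SD, n = 3 each). In this order the ranges of NRF3 and empty vector cells overlapped, and the highest NRF2 library (39.6 CPM) stood just under the lowest NRF3 library (39.8 CPM). Against empty vector, the log2 fold change was -0.40 with NRF1 (standard error (SE) 0.08) and -0.18 with NRF2 (SE 0.08).

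MAP2K1, the other gene behind the choice, was highest in NRF2 and NRF1 cells. The counts were 782, 768 and 831 in NRF1 cells, 864, 793 and 837 in NRF2 cells, 645, 705 and 662 in NRF3 cells and 600, 674 and 629 in empty vector cells. Thus all 6 NRF1 and NRF2 libraries lay above all 6 NRF3 and empty vector libraries, while NRF1 overlapped with NRF2 and NRF3 overlapped with empty vector. The level was 57.6 ± 2.45 CPM in NRF1 cells, 59.3 ± 1.97 in NRF2 cells, 50.03 ± 1.26 in NRF3 cells and 46.6 ± 2.65 in empty vector cells (SD, n = 3 each). Against empty vector, the log2 fold change was 0.31 with NRF1 (SE 0.07) and 0.35 with NRF2 (SE 0.07), increases of 23.6% and 27.3%.

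**Figure D1:**
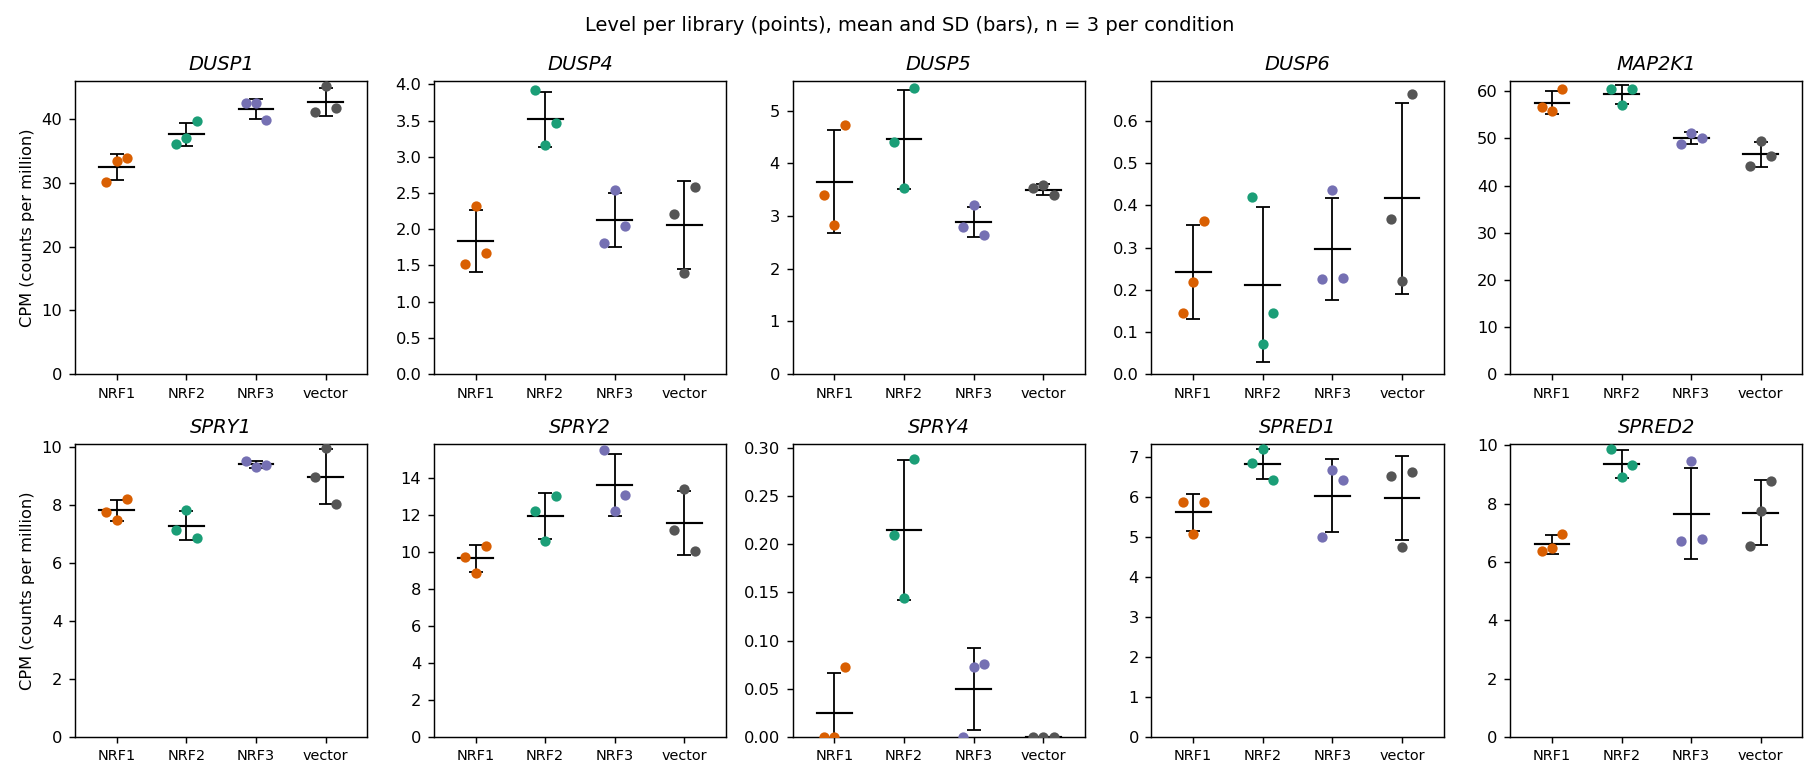
Level of the 10 genes in each library in CPM (vertical axes, each from 0), for NRF1, NRF2, NRF3 and empty vector cells (vector). Points are libraries, and horizontal lines and bars are the mean and SD of 3. DUSP1 is lowest in the NRF1 libraries (30.2 to 33.9 CPM), and DUSP4 is highest in the NRF2 libraries (3.17 to 3.92 CPM).

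The remaining phosphatases gave lower counts. DUSP4, a nuclear phosphatase of ERK and JNK, had 21, 32 and 23 counts in NRF1 cells, 56, 44 and 48 in NRF2 cells, 24, 35 and 27 in NRF3 cells and 30, 19 and 35 in empty vector cells. All 3 NRF2 libraries exceeded the other 9, which overlapped among themselves. The log2 fold change of DUSP4 against empty vector was 0.77 with NRF2 (SE 0.23) and -0.16 with NRF1 (SE 0.25). DUSP5, a nuclear phosphatase that acts on ERK, had 47, 39 and 65 counts in NRF1 cells, 63, 49 and 75 in NRF2 cells, 37, 44 and 35 in NRF3 cells and 48, 49 and 46 in empty vector cells. On the CPM scale its NRF1 and NRF2 ranges both overlapped with empty vector, and the log2 fold changes were 0.06 (SE 0.20) and 0.35 (SE 0.20). DUSP6, the cytoplasmic phosphatase that acts on ERK and a common readout of ERK activity, summed to 10 counts in NRF1 cells, 9 in NRF2 cells, 12 in NRF3 cells and 17 in empty vector cells over 3 libraries each. The ratios to empty vector, scaled for depth, were 0.581 with NRF1 (95% exact counting interval 0.238 to 1.34), 0.514 with NRF2 (0.202 to 1.22) and 0.717 with NRF3 (0.312 to 1.59), so a difference in DUSP6 was not detectable at this depth.

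Of the Sprouty genes, SPRY1 had 107, 103 and 113 counts in NRF1 cells, 102, 109 and 95 in NRF2 cells, 126, 128 and 124 in NRF3 cells and 122, 136 and 109 in empty vector cells. The NRF2 libraries were below all empty vector libraries on the CPM scale (log2 fold change -0.30, SE 0.12), and the NRF1 libraries overlapped with them (-0.20, SE 0.11). SPRY2 had 134, 122 and 142 counts in NRF1 cells, 174, 147 and 180 in NRF2 cells, 205, 168 and 173 in NRF3 cells and 152, 183 and 136 in empty vector cells. Its log2 fold change was -0.26 with NRF1 (SE 0.14) and 0.05 with NRF2 (SE 0.13), and both ranges overlapped with empty vector. SPRY4 was close to the detection limit. It had 0, 0 and 1 counts in NRF1 cells, 3, 2 and 4 in NRF2 cells, 0, 1 and 1 in NRF3 cells and 0 in each empty vector library. Taking 3 counts over the 3 empty vector libraries as the limit that a count of 0 allows, the ratio of NRF2 to empty vector cells was 2.92. That value takes the 9 counts of NRF2 cells as exact, so it is not a lower bound. The 95% exact counting interval of the ratio, which allows for counting error in both, starts at 1.92. Neither figure allows for variation between libraries.

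SPRED1 and SPRED2 encode membrane-associated inhibitors that bring the RAS inhibitor neurofibromin to the membrane. SPRED1 had 81, 70 and 81 counts in NRF1 cells, 98, 100 and 89 in NRF2 cells, 66, 92 and 85 in NRF3 cells and 89, 65 and 90 in empty vector cells. The ranges of all transgenes overlapped with empty vector, with log2 fold changes of -0.09 for NRF1 (SE 0.16) and 0.19 for NRF2 (SE 0.15). SPRED2 had 88, 89 and 96 counts in NRF1 cells, 141, 124 and 129 in NRF2 cells, 89, 130 and 90 in NRF3 cells and 89, 106 and 119 in empty vector cells. The NRF2 libraries of SPRED2 were above all empty vector libraries on the CPM scale (log2 fold change 0.29, SE 0.14), and the NRF1 libraries overlapped with them (-0.22, SE 0.15).

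Across the set, the changes differed in direction between genes and between transgenes. With NRF1, 1 tested member was called higher (MAP2K1) and 1 lower (DUSP1), where 0.238% of all tested genes were called higher and 1.51% lower. With NRF2, 2 were called higher (MAP2K1 and DUSP4), where 4.68% of all tested genes were called higher and 5.81% lower. The ranges of transgene and empty vector cells did not overlap for 2 of 8 members with NRF1 (30.9% of all tested genes) and for 5 of 8 with NRF2 (35.4%). These comparisons chose the set, so the choice itself fixed the calls of DUSP1 and MAP2K1, and nothing is read from the counts. The median log2 fold change of the members was -0.18 with NRF1 and 0.24 with NRF2, beside -0.01 and 0.00 over all tested genes. The 2 comparisons share the empty vector libraries. DUSP1 was no longer called with NRF1 when any 1 NRF1 or empty vector library was left out (log2 fold change -0.43 to -0.35 over 12 such fits), nor was MAP2K1 when any 1 of these or NRF2 replicate 3 was left out (0.27 to 0.35). With NRF2, the log2 fold change over these fits was 0.31 to 0.39 for MAP2K1 and 0.55 to 0.97 for DUSP4, which was no longer called without any NRF2 library or without empty vector replicate 1 or 2. The unequal variance test of log2 CPM called none of these.

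**Figure D2:**
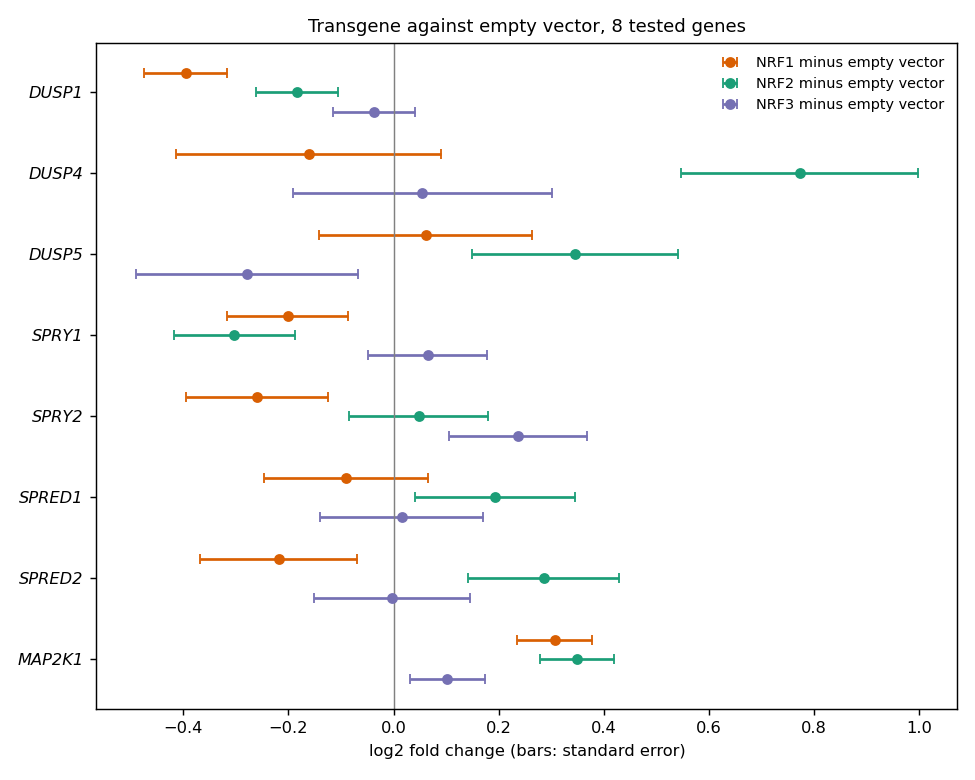
Log2 fold change against empty vector (horizontal axis) of the 8 tested genes in NRF1, NRF2 and NRF3 cells, from 1 model of 12 libraries; points are estimates and bars are standard errors. DUSP4 lies highest with NRF2 (0.77), DUSP1 lowest with NRF1 (-0.40), and the NRF3 values lie between -0.28 and 0.24.

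NRF3 cells were not used to choose the set, and no member was called in them. The empty vector libraries they are compared with were used for that choice. The log2 fold changes against empty vector ran from -0.28 for DUSP5 (SE 0.21) to 0.24 for SPRY2 (SE 0.13), and the lowest adjusted p among the 8 members was 0.994 in edgeR's quasi-likelihood test. DUSP1 was -0.04 (-0.19 to 0.12, 2 SE either side) and MAP2K1 was 0.10 (-0.04 to 0.25). Those intervals leave out changes as large as the estimates of DUSP1 with NRF1 and of MAP2K1 with NRF1 or NRF2. Because these estimates chose the set and share the empty vector libraries, that contrast is given as a description. For DUSP4 the interval was wide, -0.44 to 0.55. Of all tested genes, 0.0198% were called higher and 0.00661% lower with NRF3, so a count of 0 members is near the background. No member had an unadjusted p under 0.05, where 4.11% of all tested genes did (622), so this 0 is also near the background. DESeq2 called 0 members and 0.0529% of all tested genes. DUSP5 was the 1 member of 8 whose NRF3 and empty vector libraries did not overlap, with 8.59% of all tested genes.

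The transgenes were next compared directly. Tests are given for the 6 tested members other than DUSP1 and MAP2K1, in libraries that the comparisons with empty vector also used. No such member was called in any of the 3 comparisons by edgeR's quasi-likelihood test, which called 1.25% of all tested genes between NRF2 and NRF1, 5.17% between NRF2 and NRF3 and 0.396% between NRF1 and NRF3. DESeq2 likewise called none of these 6. At an unadjusted p under 0.05 there were 3 of 6 for NRF2 against NRF1, 3 of 6 for NRF2 against NRF3 and 2 of 6 for NRF1 against NRF3, beside 10.7%, 20.5% and 11.7% of all tested genes.

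DUSP4 came closest between NRF2 and NRF1 cells, with 56, 44 and 48 counts in NRF2 cells against 21, 32 and 23 in NRF1 cells. Its log2 fold change was 0.93 (SE 0.23, adjusted p = 0.0614 by edgeR), and it was higher in all 3 NRF2 libraries. SPRED2 followed with 0.50 (SE 0.15, adjusted p = 0.142), then SPRY2 with 0.31 (adjusted p = 0.416) and SPRED1 with 0.28 (adjusted p = 0.556). For these 4 of 6 members every NRF2 library exceeded every NRF1 library, as did 18.8% of all tested genes in either direction. DUSP5 and SPRY1 overlapped, at 0.28 (SE 0.19) and -0.10 (SE 0.12). The call of DUSP4 depended on the fit: it passed without NRF3 replicate 2, NRF3 replicate 3 or empty vector replicate 2 (adjusted p as low as 0.0280), and SPRED2 passed without NRF3 replicate 2 (adjusted p = 0.0383).

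Between NRF2 and NRF3 cells, DUSP4 was 0.72 (SE 0.23, adjusted p = 0.0779), DUSP5 0.62 (SE 0.20, adjusted p = 0.0887) and SPRY1 -0.37 (SE 0.12, adjusted p = 0.0778) on the log2 scale. The NRF2 and NRF3 libraries of these 3 genes did not overlap, with 19.8% of all tested genes, whereas SPRED2 overlapped at 0.29 (SE 0.14, adjusted p = 0.272). The SPRED2 overlap came from NRF3 replicate 2, with 130 counts beside 89 and 90 in the other NRF3 libraries. Without NRF3 replicate 2, DUSP4 (adjusted p = 0.0222), DUSP5 (0.0364) and SPRED2 (0.0273) were called, in a fit where 20.1% of 15345 tested genes were called. NRF3 replicates 2 and 3 also differed most over all genes, by a chi-square of 29.4 per gene, the largest of the 12 replicate pairs. NRF3 replicate 1 stood at 11.97 from replicate 2 and at 13.05 from replicate 3, so this measure does not single out replicate 2. Pairs within the other conditions ran from 2.19 to 9.07.

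Between NRF1 and NRF3 cells, SPRY2 was -0.50 (SE 0.13, adjusted p = 0.151), with 134, 122 and 142 counts in NRF1 cells against 205, 168 and 173 in NRF3 cells. SPRY1 was -0.27 (SE 0.11, adjusted p = 0.386). In both genes all NRF1 libraries lay below all NRF3 libraries, which held in 1 direction or the other for 12.7% of all tested genes. SPRY2 passed the test without NRF3 replicate 2 (adjusted p = 0.0237), when 8.77% of tested genes did. DUSP1 and MAP2K1, given as a description, were -0.36 (SE 0.08) and 0.20 (SE 0.07) for NRF1 against NRF3, and -0.15 (SE 0.08) and 0.25 (SE 0.07) for NRF2 against NRF3. For NRF2 against NRF1 they were 0.21 (SE 0.08) and 0.04 (SE 0.07), the interval of MAP2K1, 2 SE either side, being -0.10 to 0.18.

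**Figure D3:**
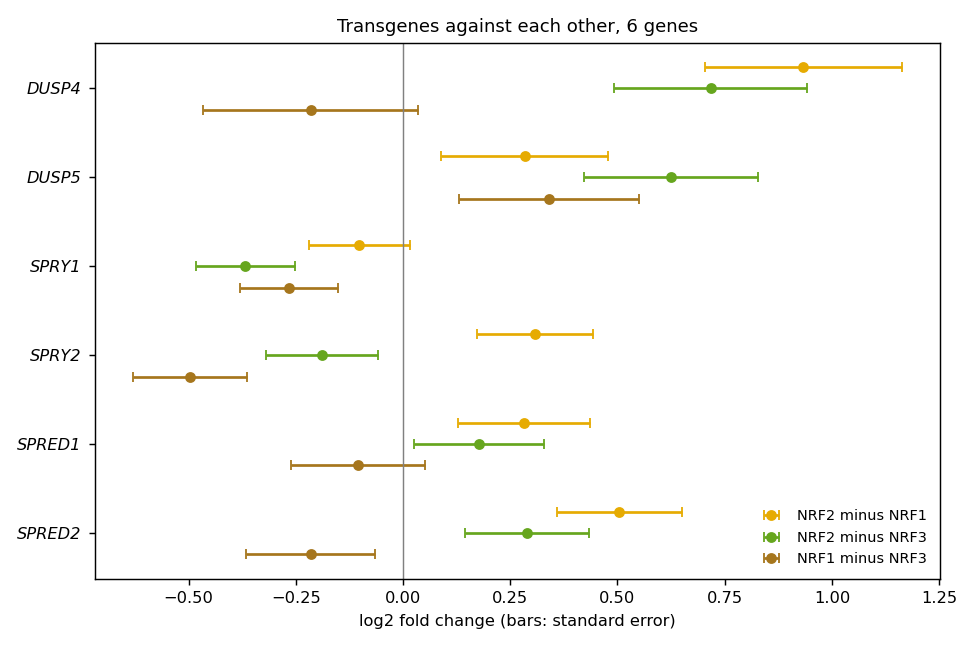
Log2 fold change (horizontal axis) of 6 genes for NRF2 minus NRF1, NRF2 minus NRF3 and NRF1 minus NRF3; points are estimates and bars are standard errors. DUSP4 lies farthest to the right for NRF2 minus NRF1 (0.93) and SPRY2 farthest to the left for NRF1 minus NRF3 (-0.50); no gene passed the test.

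Levels across the 12 libraries were also compared by Pearson correlation of log2 CPM, which is given as a description because the libraries fall into 4 conditions. Among the 8 tested members, DUSP4 and SPRED2 were the most alike (r = 0.75), followed by DUSP4 and SPRED1 (0.70) and DUSP1 and SPRY2 (0.69). SPRY1 and MAP2K1 ran most opposite (-0.71), followed by DUSP1 and MAP2K1 (-0.66). Of 11725 genes with a mean of at least 50 counts, those most like DUSP1 included GATA2-AS1 (0.94), TWIST1 (0.91), CXorf23 (0.87) and SLX1A (0.87). GATA2-AS1 is an antisense gene and SLX1A has a near-identical copy, and the treatment of strand and of shared reads in counting is not stated. Those most like MAP2K1 were ARF1 (0.97), KCTD10 (0.96), PLOD1 (0.94), FAM222A (0.93) and EMC10 (0.93).

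The rest of the pathway was read from 9 further lists, chosen with earlier results of these data known. With NRF3, 0 of their 114 tested genes were called by edgeR or DESeq2, and 3 had an unadjusted p under 0.05. In either direction, edgeR called 1.75% of all tested genes with NRF1, 10.5% with NRF2 and 0.0264% with NRF3. DESeq2 called 3%, 9.89% and 0.0529%. Calls in these lists, and counts of 0, are to be read against those shares. Of all tested genes, an unadjusted p under 0.05 was found for 17.4% in NRF1 cells, 24.5% in NRF2 cells and 4.11% in NRF3 cells, and the counts at that level in these lists are to be read against those shares. The 6 other MAP kinase phosphatases (DUSP2, DUSP7, DUSP8, DUSP9, DUSP10 and DUSP16) did not pass either test with any transgene. With each transgene 1 of them, a different gene each time, had an unadjusted p under 0.05 by edgeR. These were DUSP7 with NRF1 (log2 fold change 0.18), DUSP10 with NRF2 (-0.43) and DUSP8 with NRF3 (-0.54). The 13 MEK, ERK and ERK substrate kinases, among them MAP2K2, which encodes MEK2, and MAPK3, which encodes ERK1, were also not called by either tool, with 3 at an unadjusted p under 0.05 for NRF1, 2 for NRF2 and 0 for NRF3. The same held for the 15 kinases of the JNK and p38 branches, with 2, 2 and 0. Of 10 tested atypical DUSPs, DUSP3 alone was higher with NRF2 (log2 fold change 0.30, adjusted p = 0.0438), a call that DESeq2 did not make (adjusted p = 0.0524) and that was lost without any NRF1, NRF2 or empty vector library. Of 14 tested other inhibitors of the cascade, TRIB1, a pseudokinase that binds MEK1, was the 1 gene that edgeR called (DESeq2 called 2 with NRF1 and 1 with NRF2): it had 2521, 2830 and 2880 counts in NRF1 cells against 1825, 1776 and 1853 in empty vector cells (log2 fold change 0.58, adjusted p = 0.00123). TRIB1 was also lower in NRF2 than in NRF1 cells (-0.47, adjusted p = 0.00210). All adjusted p in this and the next paragraphs are from edgeR's quasi-likelihood test over all tested genes unless another test is named.

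Transcripts that ERK signaling is known to induce moved in both directions with NRF2. Of 15 tested genes, 4 rose and 2 fell, where 4.68% and 5.81% of all tested genes did, and the median log2 fold change was -0.10, beside 0.00 over all tested genes. FOSL1, which encodes the AP-1 subunit FRA1, had 81, 75 and 122 counts in NRF2 cells against 23, 19 and 22 in empty vector cells (log2 fold change 2.07, SE 0.24, adjusted p = 3.2e-05). ETV5, an ETS transcription factor induced by ERK, had 40, 42 and 31 counts in NRF2 cells against 5, 9 and 7 in empty vector cells (2.37, SE 0.34, adjusted p = 0.000285). In both genes all NRF2 libraries stood above all 9 others, and NRF2 also differed from NRF1 (1.63, adjusted p = 0.000379 for FOSL1 and 1.92, adjusted p = 0.00244 for ETV5). The immediate-early genes FOS (0.93, adjusted p = 0.0183) and EGR1 (0.61, adjusted p = 0.0348) rose as well; both lie outside the naming rule and were picked with their values known. JUN, the AP-1 partner of FOS, had 1861, 1556 and 1551 counts in NRF2 cells against 2307, 2526 and 2416 in empty vector cells (-0.59, adjusted p = 0.00280), and KLF6, a zinc-finger transcription factor, fell by 0.27 (adjusted p = 0.0190). With NRF1, edgeR called 2 of the 15, JUN and KLF6, where 0.238% of all tested genes were called higher and 1.51% lower. JUN fell by 0.49 (adjusted p = 0.0338) and KLF6 by 0.38 (adjusted p = 0.0127). DESeq2 called 1 of the 15 higher and 2 lower with NRF1, and 3% of all tested genes. FOSL1, ETV5 and JUN with NRF2 were called whichever library was left out. FOS was not called once NRF2 replicate 2 or empty vector replicate 2 or 3 was removed, nor EGR1 once NRF2 replicate 1 or 3 or empty vector replicate 1 or 2 was removed. KLF6 with NRF2 was lost without any NRF2 library or empty vector replicate 1 or 2, KLF6 with NRF1 without any empty vector library or NRF1 replicate 2 or 3, and JUN with NRF1 without any NRF1 or empty vector library.

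**Figure D4:**
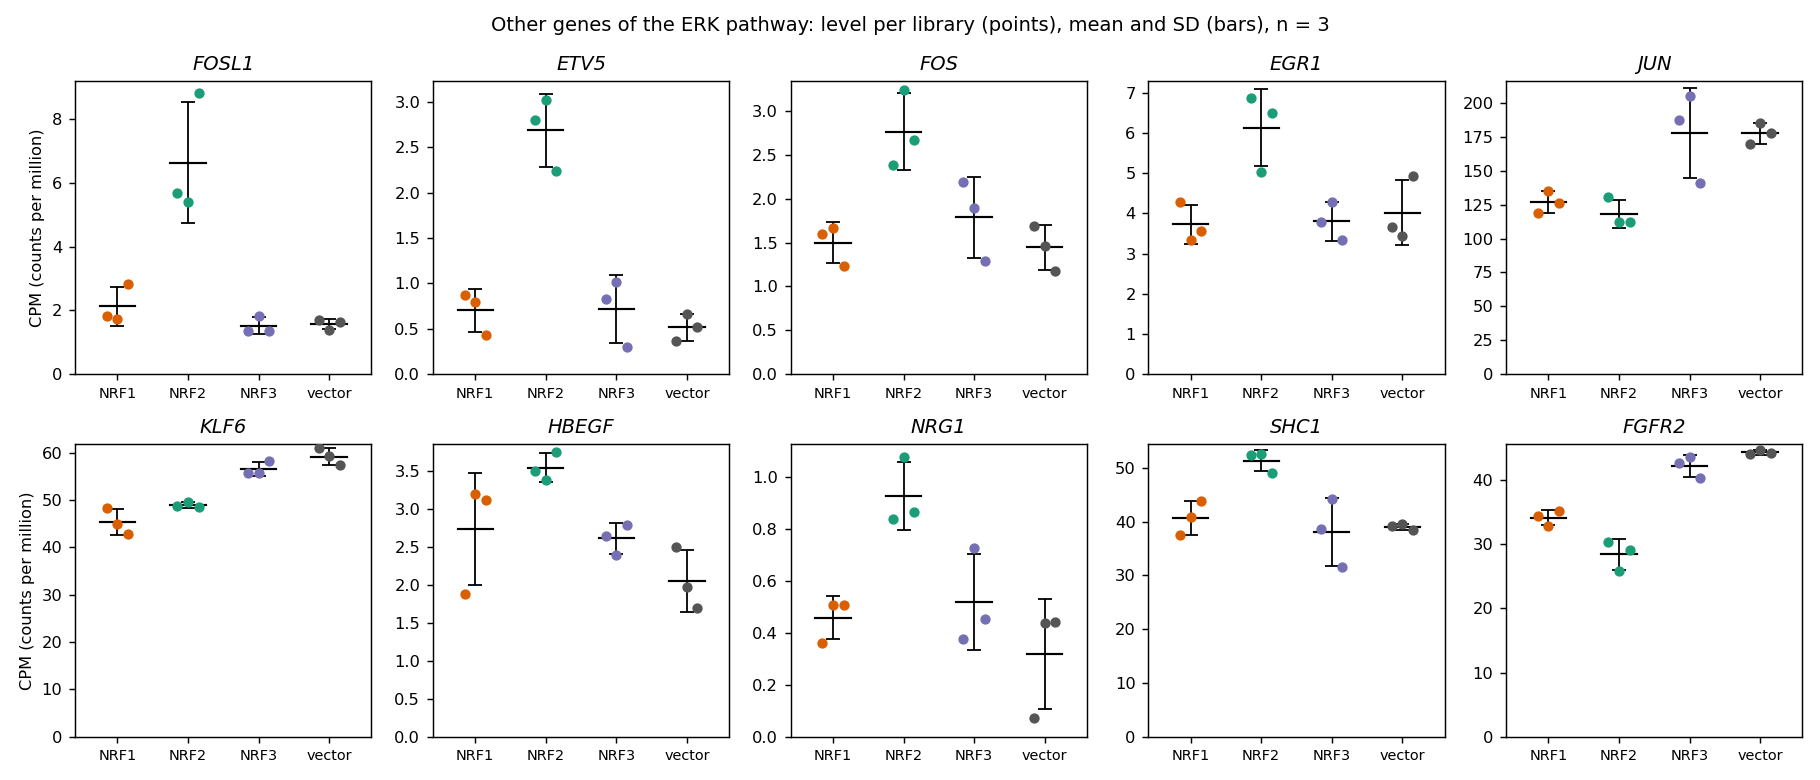
Level in CPM (vertical axes, each from 0) of 10 other genes of the pathway in each library of NRF1, NRF2, NRF3 and empty vector cells (vector); points are libraries, and lines and bars are the mean and SD of 3. FOSL1 and ETV5 are highest in the 3 NRF2 libraries, with 75 to 122 and 31 to 42 counts, and FGFR2 is lowest there, with 358 to 434 counts.

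Upstream of RAS, 3 of 8 tested growth factor ligands were higher with NRF2 and 1 was lower, where 4.68% and 5.81% of all tested genes were, and DESeq2 called 2 higher and 1 lower. HBEGF, a ligand of the EGF receptor, had 50, 47 and 52 counts in NRF2 cells against 34, 27 and 23 in empty vector cells (log2 fold change 0.78, adjusted p = 0.0258). NRG1, a ligand of ERBB3 and ERBB4, had 12, 15 and 12 counts in NRF2 cells against 1, 6 and 6 in empty vector cells (1.52). Its counts reached at most 7 in NRF1 cells and 10 in NRF3 cells, so it passed the filter on low counts only through NRF2 cells. The call of NRG1, included in the 3 of 8, is therefore given as a description. FGF11 was 0.40 higher (adjusted p = 0.0182) and PDGFC, a platelet-derived growth factor, fell by 0.38 (adjusted p = 0.0211). Of 15 tested receptor tyrosine kinases, edgeR called only FGFR2, lower with NRF1 and NRF2, where 1.51% and 5.81% of all tested genes were called lower. DESeq2 called 1 with NRF1 and 2 with NRF2, where it called 3% and 9.89% of all tested genes. FGFR2 had 474, 452 and 483 counts in NRF1 cells, 434, 358 and 402 in NRF2 cells and 599, 610 and 599 in empty vector cells. FGFR2 fell by 0.38 with NRF1 (adjusted p = 0.0237) and by 0.64 with NRF2 (adjusted p = 6.5e-05). At the RAS and RAF level, SHC1, an adaptor between receptors and RAS, rose with NRF2: it had 749, 731 and 678 counts in NRF2 cells against 533, 539 and 521 in empty vector cells (0.40, adjusted p = 0.0193). FGFR2 with NRF2 was called whichever library was left out. The calls of HBEGF, NRG1 and SHC1 were lost without NRF2 replicate 1 or 2 or without empty vector replicate 2 or 3. Those of NRG1 and SHC1 were also lost without empty vector replicate 1, those of HBEGF and NRG1 without NRF2 replicate 3, and that of NRG1 without NRF1 replicate 2. NRG1 was not called by DESeq2 (adjusted p = 0.0788). FGF11 and PDGFC needed NRF2 replicates 2 and 3 and empty vector replicate 2 to be called, FGF11 also empty vector replicate 1 and PDGFC empty vector replicate 3. FGFR2 with NRF1 was lost without any empty vector library or without NRF1 replicate 2 or 3. None of the calls against empty vector in the further lists passed the unequal variance test of log2 CPM, in which FOSL1 had an adjusted p of 0.129 and ETV5 of 0.0863.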

How the data were processed

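RNA from 12 HEK293T libraries (4 conditions, 3 libraries each) was sequenced at BGI. The authors estimated transcript abundance with the DNASTAR Lasergene Genomics Suite against GRCh37.p13, a build given in the submitters' processing notes, and deposited estimated counts with no normalization between libraries. The suite's version, filters, counting rules and strand setting were not given in the sources used here. A value of 0.009 stood for no count (45.8% of values), and 5.96% of values of at least 0.5 were not whole. A supplementary table of the study heads the same values RPKM, but most are whole, so they were treated as counts. Columns headed Vehicle were read as empty vector.

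Values were rounded. Genes passed filterByExpr with a minimum count of 10 (15135 genes). A single model of 4 conditions was fitted to the 12 libraries with edgeR 4.0.16 (trimmed mean of M values, robust quasi-likelihood, R 4.3.3), and p-values, two-sided, were adjusted by Benjamini-Hochberg over all tested genes. Log2 CPM for correlations used a prior count of 2. DESeq2 1.42.0 and Python 3.11.15 with matplotlib 3.10.9 served alternatives and plots. The study names an unequal variance test in its methods and a DESeq-based analysis in its results. The unequal variance test was an alternative here, because the values are counts. The steps were tested on simulated data. Total counts of 13452524 to 14014316 per library set the precision. The exact counting intervals of DUSP6 and SPRY4 and the detection limit of SPRY4 cover counting error only. Intervals of 2 SE either side come from the edgeR fit, whose SE also takes in the spread between libraries. Members, lists and tests were chosen with earlier results of these data known. Named genes were all members, up to 4 called genes with the smallest adjusted p per further list, and the 5 genes most like DUSP1 and MAP2K1; some genes that this rule names are not reported here. Alternatives comprised other scalings, filters, tests, a replicate block and leaving out each library.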

Additional observations from a re-analysis of the deposited data

How the results depend on the processing

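Of 912 values of the members' log2 fold changes under 19 alternatives, 0 reversed a call. In 866 the value kept its side of the threshold and moved by less than its error, but most belong to values not called in the main fit. Of the called values, MAP2K1 with NRF2 lost its call only in the unequal variance test. DUSP1 and MAP2K1 with NRF1 and DUSP4 with NRF2 also lost theirs when single libraries were left out. The number of members called was 2 for NRF1 against empty vector and 2 for NRF2 against empty vector. With a replicate block these became 1 and 1 (MAP2K1 lost with NRF1 and DUSP4 with NRF2), and with the unequal variance test of log2 CPM 0 and 0, a test that called 0.0198% and 0.542% of all genes. DESeq2 gave 1 for NRF2 against empty vector (DUSP4 lost), 1 for NRF2 against NRF3 (MAP2K1) and 1 for NRF1 against NRF3 (DUSP1), where edgeR gave 0. Scaling by total counts gave 1 for NRF2 against NRF3 (MAP2K1). For NRF2 against NRF1, 0 became 1 with no filter on low counts (DUSP4) and 2 with only the 2 compared conditions (DUSP4 and SPRED2). The cause of these shifts was not tested. Leaving out 1 library gave 0 to 2 members for NRF1 against empty vector, 1 to 2 for NRF2 against empty vector, 0 to 2 for NRF2 against NRF1, 0 to 4 for NRF2 against NRF3 and 0 to 2 for NRF1 against NRF3. NRF3 against empty vector stayed at 0 throughout. Replicate numbers did not pair the libraries: same-numbered libraries correlated at -0.258 to 0.0840 over 18 pairs of deviations. Background shares moved too, from 1.75% to 13.6% for NRF1 and from 10.5% to 18.5% for NRF2 against empty vector with only the 2 compared conditions, and from 0.396% to 8.77% for NRF1 against NRF3 without NRF3 replicate 2. DUSP6 and SPRY4 were limited by depth, and SPRY4 rests on 9 counts in NRF2 cells. Among the named genes of the other lists, the replicate block also ended the calls of FGFR2 (-0.38) and JUN (-0.49) with NRF1 and of DUSP3 (0.31), EGR1 (0.61) and HBEGF (0.78) with NRF2, all given as log2 fold changes. The alternatives for these genes were chosen after seeing the data.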
